A study of Mus musculus with 6 samples.

Results

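Expression of 10 genes of the latent TGF-β binding protein and elastic fibre families was examined in primary mouse mesangial cells, which hold the capillary loops of the kidney glomerulus together and make its central matrix. The genes were taken by name: the latent TGF-β binding protein genes Ltbp1, Ltbp2, Ltbp3 and Ltbp4, the fibrillin genes Fbn1 and Fbn2, the elastin gene Eln, the fibulin genes Fbln2 and Fbln5, and the microfibril-associated glycoprotein gene Mfap5. Each had 1 row, out of 19642 distinct gene symbols in 19730 rows. RNA-Seq was available for 3 Control libraries and for 3 libraries of cells given TGF-β1 (10 ng/ml, 72 h). All cells, Controls included, were of passage 3 to 6 and grew in high glucose (25.5 mM) with 20% serum, and the labels do not say what the Controls received in place of TGF-β1. No label states that the libraries of a group came from separate cultures, so p-values measure the spread between these libraries, which may be technical.

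TGF-β is secreted in a latent form, bound to its own propeptide, and in most cells this complex is linked to an LTBP, which anchors it in the matrix. LTBP1 and LTBP3 bind the latent complex well, LTBP4 binds mainly that of TGF-β1, and LTBP2 does not bind it. The fibrillins are close relatives of the LTBPs and polymerise into microfibrils, to which LTBPs and microfibril-associated glycoproteins attach. Elastin is laid down on microfibrils with the help of fibulin-5 and is cross-linked by lysyl oxidases. In the glomerulus, fibrillin-1 microfibrils are part of the mesangial matrix.

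SMAD proteins, which carry the TGF-β signal to the nucleus, bind a short box with the letters CAGAC. RefSeq promoter windows of 300 bases (250 before and 50 after the start site, read from build GRCm38.p6) were matched for 7 members: Ltbp1, Ltbp2, Ltbp3, Ltbp4, Fbn1, Fbln2 and Fbln5. A member can have more than 1 RefSeq start site, each with its own window. The match nearest to any of these start sites is shown for the 4 members that had one, with the box in capitals. The stretch shown for Fbln5 lies inside the gene as annotated on mm9, and another of its windows held a box 30 bases after that window's start site. It reads GTCTG where the box lies on the other strand. Positions are on mm9, by exact match of the 30 bases to that genome, where each has 1 match.
Ltbp2, box 28 bases after the start site, chr12:86217396-86217425, minus strand: tcggttccccttCAGACggcggcagtgcgg
Fbln5, box 15 bases before the start site, chr12:103056692-103056721, minus strand: cgagagaggcagCAGACaacctctctaggt
Ltbp1, box 64 bases before the start site, chr17:75404793-75404822, plus strand: gcctgacgtcacGTCTGctgcagattggct
Ltbp3, box 1 base before the start site, chr19:5740887-5740916, plus strand: gttcttttgagtCAGACactggatcctggg

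On either strand, CAGAC was found in 6 of the 11 windows of these 7 members, and in 49.6% of all 32851 windows. The 4 members that held it were Ltbp2, which rose with TGF-β1, Fbln5, which fell, and Ltbp1 and Ltbp3, which were not called. Fbln2 and Fbn1, which rose, and Ltbp4, which fell, held none in these windows. The AP-1 motif TGANTCA was found in 7.81% of all windows and in 1 member, Ltbp3, where it overlaps the box shown. A match describes the letters only, and binding was not measured here.

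The values are FPKM, fragments per kilobase of transcript, scaled to the library's total of mapped fragments, which are divided by length and so can be compared between genes. The steps of the lowest values correspond to 10.1 to 11.1 M (mega) mapped fragments per library. The replicate 2 library of TGF-β1 stood apart: across genes, Spearman's rho between GC content and deviation from the group mean was -0.39, against 0.27 and 0.31 in TGF-β1 replicates 1 and 3 and -0.09 to 0.10 in the Controls. Mesangial and pericyte markers summed to 3607 to 4222 FPKM in Control and to 9692 to 10324 FPKM with TGF-β1, led by Acta2, Vim and Tagln, which rose. The receptor gene Pdgfrb fell from 37.5 ± 4.82 to 29.2 ± 0.751 FPKM (SD, n = 3; limma, adjusted p = 0.0396), and Des, Itga8 and Thy1 were at 0.550 FPKM or less in every library. Cspg4 was called higher without a filter, with means of 0.0735 FPKM in Control and 1.21 FPKM with TGF-β1 (limma, adjusted p = 9.51e-04). Endothelial markers summed to 0.822 FPKM or less. The podocyte markers Synpo, Podxl and Wt1 were each called lower with TGF-β1, and Nphs1 was at 0.398 FPKM or less in every library. Macrophage markers went from 84.3 to 111.8 FPKM in Control to 7.25 to 8.92 FPKM, nearly all of it Cd14. Csf1r, also of that list, fell from 6.27 ± 0.979 to 0.411 ± 0.156 FPKM (SD, n = 3; limma, adjusted p = 8.56e-05). Ptprc, which marks leukocytes, was at 0 FPKM in all Controls and at most 0.045 FPKM with TGF-β1, and Itgam and Lyz2 were at 0.36 FPKM or less in every library. Epithelial markers went from 115 to 148 FPKM to 7.26 to 8.01 FPKM, nearly all of it Cdh16 in Control, while Cdh1 was at 0.123 FPKM or less and Krt19 was called higher without a filter, with means of 0.156 and 1.06 FPKM (limma, adjusted p = 0.00563). In the same fit Lrp2 was called lower, with means of 1.43 FPKM in Control and 0.230 FPKM with TGF-β1 (limma, adjusted p = 0.00369). The part of these shifts in the results below was not tested.

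Of the 10 members, 3 were higher with TGF-β1 (Fbln2, Fbn1 and Ltbp2), 2 were lower (Fbln5 and Ltbp4), and 2 were tested and not called (Ltbp1 and Ltbp3). The call was an adjusted p under 0.05 in limma on log2(FPKM + 1), among rows with a mean of at least 1 FPKM. All log2 changes are on this scale, on which the change of a gene with low FPKM comes out too small, while folds are ratios of mean FPKM. The remaining 3, Fbn2, Eln and Mfap5, were under that filter and were not called in the fit without a filter either, where 30.5% of all rows were called. Over all 11898 tested rows, 48.1% were called, 24.5% as higher and 23.6% as lower. The libraries of the groups did not overlap in 5 of the 7 tested members and in 59.4% of all tested rows. When the libraries were rescaled to the summed FPKM of protein-coding rows, 2015 of all rows were called higher and 3928 lower in place of 2911 and 2810, and the members still numbered 3 higher and 2 lower. Because less RNA per cell and fewer cells of a kind look alike in bulk RNA, the values describe cultures, not single cells.

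**Figure D1:**
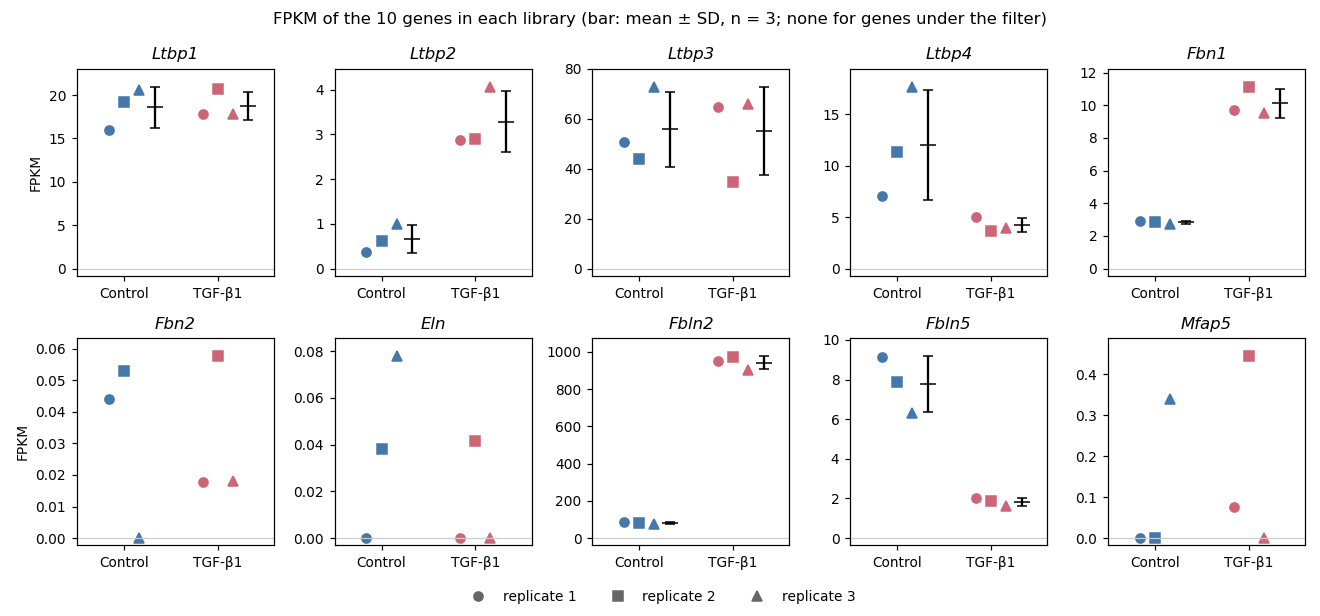
FPKM (vertical axis, linear, a separate scale per gene) of each member in the 3 Control (blue) and 3 TGF-β1 (red) libraries, with the replicate given by the symbol and the mean ± SD (n = 3) beside the 7 genes that passed the filter. The libraries of the groups lie apart in Ltbp2, Ltbp4, Fbn1, Fbln2 and Fbln5 and overlap in the other 5.

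The fibulins moved in opposite directions. Fbln2 encodes fibulin-2, a glycoprotein that binds fibrillin-1, fibronectin and basement membrane proteins. Control replicates 1 to 3 held it at 86.0, 81.1 and 74.8 FPKM and TGF-β1 replicates 1 to 3 at 951, 972 and 905 FPKM. The lowest treated library was thus far above the highest Control library. Its mean rose from 80.6 ± 5.59 to 943 ± 34.2 FPKM (SD, n = 3), 11.7-fold, and its log2 change was 3.53 (SE 0.0858; limma, adjusted p = 4.41e-06). That was the 44th largest rise of the 11898 tested rows. By level, Fbln2 exceeded 89.7% of tested rows in Control and 98.8% with TGF-β1.

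Fbln5 encodes fibulin-5, which binds elastin and integrins and is needed to build elastic fibres. It was at 9.13, 7.86 and 6.30 FPKM in Control and at 2.02, 1.86 and 1.63 FPKM with TGF-β1, so that every treated library was under every Control library. The mean fell from 7.76 ± 1.42 to 1.84 ± 0.201 FPKM (SD, n = 3), 4.23-fold lower, and its log2 change was -1.62 (SE 0.144; limma, adjusted p = 2.96e-04). Fbln5 has a single annotated transcript, and its values correspond to 381 to 569 fragments in Control and 99.2 to 125 with TGF-β1. A larger fall was seen in 2.94% of tested rows. Fbln2 made up 90.4% to 92.2% of the summed FPKM of both fibulins in Control and 99.8% in each treated library. The difference in this share was 8.54 percentage points (two-sided exact permutation test p = 0.1, the smallest value that 3 against 3 libraries allow, and 0.2 adjusted over 6 such comparisons of composition).

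Of the fibrillins, Fbn1 rose and Fbn2 was barely detected. Fbn1, whose product forms the microfibrils of adult tissue, was at 2.93, 2.84 and 2.75 FPKM in Control and at 9.69, 11.1 and 9.51 FPKM with TGF-β1. The highest Control library was 1.07 times the lowest, and all treated libraries were higher. The mean rose from 2.84 ± 0.0906 to 10.1 ± 0.890 FPKM (SD, n = 3), 3.56-fold, and its log2 change was 1.53 (SE 0.0933; limma, adjusted p = 7.66e-05). Only 3.17% of tested rows rose more.

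Fbn2 encodes fibrillin-2, which is made mainly in the embryo. It was at 0.044, 0.053 and 0 FPKM in Control and at 0.018, 0.058 and 0.018 FPKM with TGF-β1. These values correspond to about 5, 6 and 0 fragments in Control and to 2, 6 and 2 with TGF-β1, so the groups overlap and no fold is given. A floor of 3 fragments lies at 0.0263 to 0.0289 FPKM for this long transcript, and a difference was not detectable at this depth (limma without a filter, adjusted p 0.990). Fbn2 was 1.83% or less of the summed fibrillin FPKM in every library (exact permutation p = 0.4 for the share, 0.48 adjusted).

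Elastin, the rubber-like core protein of the elastic fibre, was at the limit of detection in both groups. Eln was listed at 0 FPKM in Control replicate 1 and in TGF-β1 replicates 1 and 3. The other libraries gave 0.038 and 0.078 FPKM in Control replicates 2 and 3 and 0.041 FPKM in TGF-β1 replicate 2. With its single annotated transcript, these correspond to about 1, 2 and 1 fragments. All 6 values lie under the floor of 3 fragments, which is 0.114 to 0.125 FPKM, so no change could be detected (limma without a filter, adjusted p 0.592). The ratio of Eln to the summed fibrillins was at most 0.0283 in any library (exact permutation p = 0.4, 0.48 adjusted).

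Mfap5 encodes MAGP-2, a small glycoprotein of the microfibril. It was listed at 0 FPKM in Control replicates 1 and 2 and in TGF-β1 replicate 3, and at 0.338 FPKM in Control replicate 3 and 0.075 and 0.443 FPKM in TGF-β1 replicates 1 and 2. The groups overlap, and the gene was not called (limma without a filter, adjusted p 0.793). The row names a transcript of 328 nt, the first of 7 annotated ones by position, and its values were not whole multiples of 1 fragment at the length of its longest transcript, so the fragments behind them cannot be told.

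The LTBP genes moved in different directions. Ltbp3 was the most abundant, at 50.7, 44 and 72.8 FPKM in Control and at 64.6, 34.9 and 66.1 FPKM with TGF-β1. The groups overlap, and TGF-β1 replicate 2 was the lowest of the 6 libraries. The means were 55.9 ± 15.1 and 55.2 ± 17.6 FPKM (SD, n = 3), with a log2 change of -0.04 and a 95% interval of -0.76 to 0.68 (limma adjusted p 0.923). The Ltbp3 transcript has a GC content of 61.5%, and without TGF-β1 replicate 2 its log2 change was 0.26 (limma adjusted p 0.389).

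Ltbp1 was at 16.0, 19.2 and 20.6 FPKM in Control and at 17.8, 20.7 and 17.8 FPKM with TGF-β1. The groups overlap and the means were 18.6 ± 2.36 and 18.7 ± 1.66 FPKM (SD, n = 3). The log2 change was 0.02, with a 95% interval of -0.27 to 0.30 (limma adjusted p 0.928), which is narrower than that of Ltbp3. Ltbp1 has long and short forms from separate promoters, and which of them was read cannot be told from the single value, which was taken as that of the whole gene, an assumption made for every member.

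Ltbp4 varied widely in Control, at 7.06, 11.3 and 17.7 FPKM, a 2.50-fold range. With TGF-β1 it was at 4.99, 3.69 and 3.99 FPKM, under every Control library. The mean fell from 12 ± 5.34 to 4.22 ± 0.680 FPKM (SD, n = 3), 2.84-fold lower, and its log2 change was -1.24 (SE 0.30; limma, adjusted p = 0.0158). The call was lost without Control replicate 2, TGF-β1 replicate 2 or TGF-β1 replicate 3, with limma adjusted p-values of 0.0502, 0.0509 and 0.0518, and within replicates 1 and 3 alone (0.115). Over all alternatives its adjusted p was 0.00550 to 0.115, and its log2 change stayed negative, from -1.54 to -0.94. Its transcript has a GC content of 62.2%, and with the GC trend removed its log2 change was -0.95 (limma, adjusted p = 0.0290).

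Ltbp2, whose product attaches to fibrillin-1 microfibrils, was low in Control at 0.375, 0.612 and 0.986 FPKM. It reached 2.87, 2.91 and 4.06 FPKM with TGF-β1, and all treated libraries were above all Controls. The mean rose from 0.658 ± 0.308 to 3.28 ± 0.679 FPKM (SD, n = 3), 4.99-fold, and its log2 change was 1.37 (SE 0.188; limma, adjusted p = 0.00168). The values correspond to about 27.3 to 69.5 fragments in Control and 193 to 289 with TGF-β1. Ltbp2 passed the filter on low values only through its treated libraries, and with a pseudocount of 0.1 in place of 1 its log2 change was 2.22. It shares 764 nt of exon with D030025P21Rik on the opposite strand, which was at 0 to 0.043 FPKM in Control and 0.137 to 0.512 FPKM with TGF-β1. The share of that gene's reads in the Ltbp2 value was not tested.

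The summed level of the LTBP genes was 74.1, 75.1 and 112 FPKM in the Controls and 90.3, 62.1 and 91.9 FPKM in the treated libraries. The sums overlap, with a mean difference of -5.66 FPKM (two-sided exact permutation test p = 0.8, adjusted 0.8), and the sign of that difference turned without Control replicate 3 (6.82) or TGF-β1 replicate 2 (4.002). Within the sum, Ltbp3 held 58.6% to 68.4% in Control and 56.1% to 71.9% with TGF-β1. Ltbp2 went from 0.734% ± 0.199 to 4.09% ± 0.801 of the sum, and Ltbp4 from 13.4% ± 3.40 to 5.27% ± 0.830 (SD, n = 3). For Ltbp2 the libraries did not overlap (exact permutation p = 0.1, adjusted 0.2). The share of Ltbp4 was not tested.

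The ligands that LTBPs hold were compared with them. Tgfb1 rose from 29.4 ± 3.91 to 62.8 ± 6.26 FPKM, Tgfb2 from 12.3 ± 0.812 to 19.7 ± 2.49 FPKM and Tgfb3 from 19.4 ± 1.34 to 63.0 ± 2.56 FPKM (SD, n = 3). Their limma adjusted p-values were 8.81e-04, 0.00430 and 3.62e-05. The summed ligand FPKM was 57.9 to 66.2 in Control and 142 to 151 with TGF-β1. Ltbp1, Ltbp3 and Ltbp4 together stood at 1.248, 1.29 and 1.68 times the ligand sum in Control and at 0.579, 0.414 and 0.618 times with TGF-β1. The means of this ratio were 1.40 ± 0.237 and 0.537 ± 0.109 (SD, n = 3), and the libraries did not overlap (exact permutation p = 0.1, adjusted 0.2). The ratio compares RNA levels per length and says nothing of protein.

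**Figure D2:**
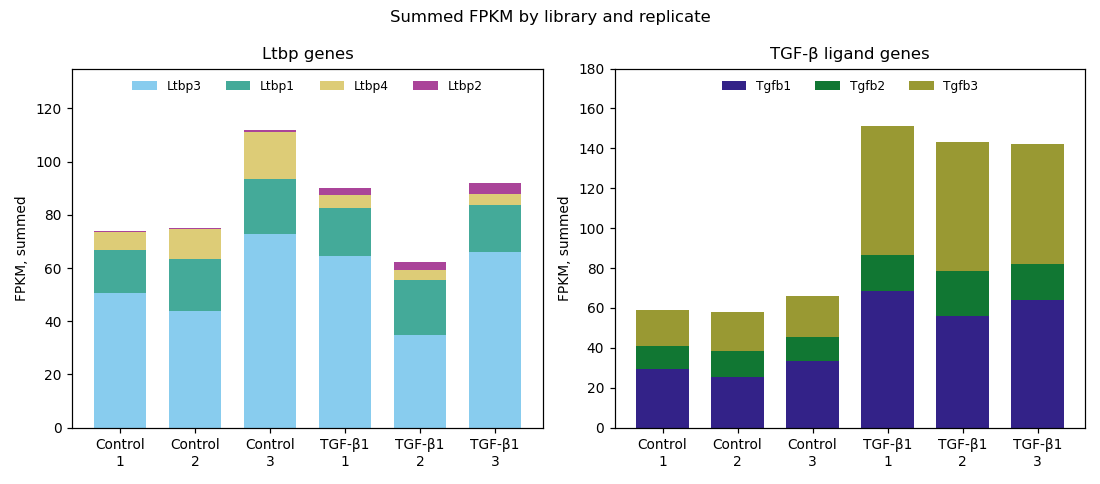
Summed FPKM (vertical axes, from 0) of the Ltbp genes (left) and of the TGF-β ligand genes (right) in each library, with the gene given by colour. The Ltbp bars of the groups overlap, at 74.1 to 112 in Control and 62.1 to 91.9 with TGF-β1, while the ligand bars go from 57.9 to 66.2 in Control to 142 to 151.

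The order of the members by level changed. In Control it ran Fbln2, Ltbp3, Ltbp1, Ltbp4, Fbln5, Fbn1 and Ltbp2, followed by the 3 genes under the filter. The libraries of Ltbp1 and Ltbp4 overlapped in level, and so did those of Ltbp4 and Fbln5, while the other neighbours among these 7 lay apart. With TGF-β1 the order was Fbln2, Ltbp3, Ltbp1, Fbn1, Ltbp4, Ltbp2 and Fbln5. Here the libraries of Ltbp4 and Ltbp2 overlapped and all other neighbours lay apart. Fbn1 thus went from a level under Ltbp4 and Fbln5 in every Control library to one above both in every treated library.

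**Figure D3:**
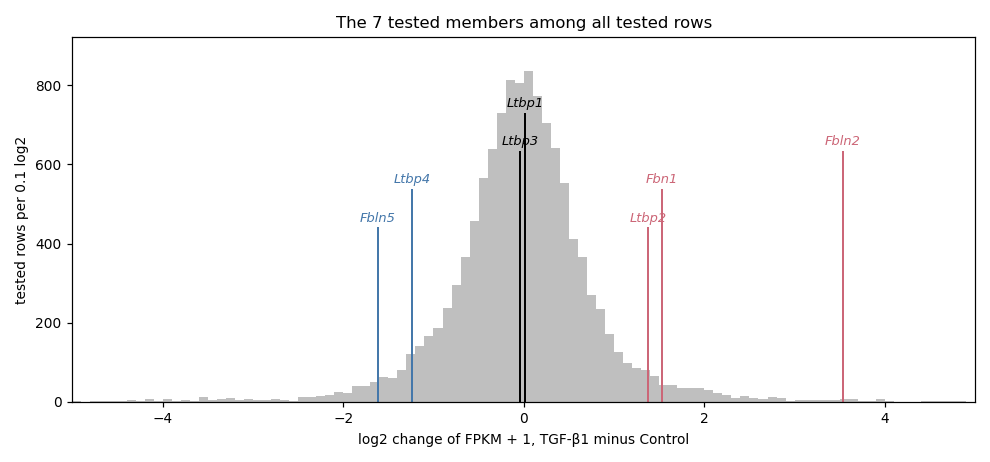
Number of tested rows (vertical axis) by log2 change of FPKM + 1, TGF-β1 minus Control (horizontal axis, bins of 0.1; 37 rows lie beyond 5 in size), with lines for the 7 tested members, red for those called higher, blue for lower and black for not called. The changes of Ltbp1 and Ltbp3, at 0.02 and -0.04, lie beside the median of all rows, -0.02, and that of Fbln2 lies at 3.53.

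Genes that work with the members were counted from 3 lists. Of 22 other genes of microfibrils and elastic fibres, 13 were tested, with 4 higher, 5 lower and 4 not called. Over all tested rows, 24.5% were higher and 23.6% lower. The median log2 change of the 13 was -0.01, against -0.02 over all tested rows. The cross-linking enzymes Lox and Loxl2 rose, Lox from 68.6 ± 7.58 to 158 ± 9.60 FPKM (limma adjusted p 2.84e-04) and Loxl2 from 68.1 ± 5.95 to 403 ± 31.4 FPKM (1.82e-05). Mfap2 encodes MAGP-1, another microfibril-associated glycoprotein, and fell from 9.455 ± 1.78 to 1.498 ± 1.07 FPKM (limma adjusted p 0.00221). Efemp1, which encodes fibulin-3, fell from 3.54 ± 0.603 to 0.303 ± 0.0889 FPKM (2.11e-04), and Adamtsl4, whose product binds fibrillin-1, from 10.2 ± 1.303 to 2.33 ± 0.847 FPKM (6.50e-04). Efemp1 passed the filter only through its Control libraries, and Loxl4, counted among the genes called higher, only through its treated libraries. SDs are over 3 libraries throughout.

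Of 17 genes for TGF-β ligands and for the processing, anchoring and release of latent TGF-β, 14 were tested. Of these, 13 were higher and 0 lower, against 24.5% and 23.6% of all tested rows, with a median log2 change of 1.42. The list was chosen with earlier results of these data known, so the count only describes it and is no evidence about the group. Of the 3 genes under the filter, 1 was called without it, against 30.5% of all rows. This was the integrin subunit gene Itgb6, which fell from 0.212 ± 0.0292 to 0.014 ± 0.012 FPKM (0.00530). The gene not called was Itgav, singled out after its values were seen, at 20.0 ± 4.26 and 26.4 ± 1.91 FPKM (limma adjusted p 0.0746). On the log2(FPKM + 1) scale the largest rises were those of Thbs1, whose product can activate latent TGF-β, from 18.2 ± 0.343 to 220.5 ± 15.2 FPKM (3.26e-06), and of Fn1, whose fibronectin fibres LTBP1 first binds to, from 386 ± 63.4 to 3134 ± 103 FPKM (2.55e-05). The integrin subunit Itgb1 rose from 259 ± 9.96 to 1026 ± 16.4 FPKM (1.82e-05) and Itgb3 from 1.57 ± 0.105 to 8.44 ± 0.534 FPKM (3.78e-05). The proteases rose as well, Furin, which cuts the TGF-β propeptide, from 21.7 ± 4.59 to 49.0 ± 2.76 FPKM (0.00133), Bmp1, which cleaves LTBP1, from 161 ± 4.83 to 471 ± 82.1 FPKM (3.46e-04), and Tll1 from 0.309 ± 0.0689 to 3.72 ± 0.505 FPKM (1.25e-04). By ratio of means Tll1 rose 12.02-fold, more than Fn1 (8.12-fold), and it passed the filter only through its treated libraries. Lrrc32 encodes GARP, which can hold latent TGF-β at the cell surface in place of an LTBP, and rose from 22.9 ± 1.40 to 58.8 ± 2.77 FPKM (7.61e-05). The values in brackets are limma adjusted p-values, and those of genes under the filter come from the fit without it.

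Of 17 elastin-degrading proteases and their inhibitors, 14 had a row, while Elane, Ctsg and Ctss had none. Of the 14, 8 were tested, with 3 higher, 3 lower and 2 not called, against 24.5% higher and 23.6% lower of all tested rows. The median log2 change of the 8 was -0.14. Of 6 genes under the filter, 3 were called without it, against 30.5% of all rows. All Controls listed Mmp9 at 0 and the treated libraries gave 0.591, 0.966 and 0.590 FPKM (limma, adjusted p = 0.00218), Ctsk was higher (0.0371) and Prtn3 lower (0.0153). Among the tested proteases, Mmp2 and Mmp12 were called higher and Ctsl was not called. Among the inhibitors, Timp1 rose from 209 ± 15.9 to 506 ± 25.8 FPKM (limma adjusted p 1.43e-04). Timp2 fell from 418 ± 15.7 to 287 ± 25.1 FPKM (0.00417), and Timp3 was not called. Cystatin C (Cst3), an inhibitor of cathepsins, fell from 474 ± 108 to 203 ± 55.4 FPKM (0.0103), and Serpinb1a, an inhibitor of neutrophil elastase, from 3.65 ± 1.102 to 0.965 ± 0.237 FPKM (0.00356). Serpinb1a passed the filter only through its Control libraries, as its treated mean was under 1 FPKM. With rescaling to the protein-coding sum, 1 gene of this list was called higher.

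**Figure D4:**
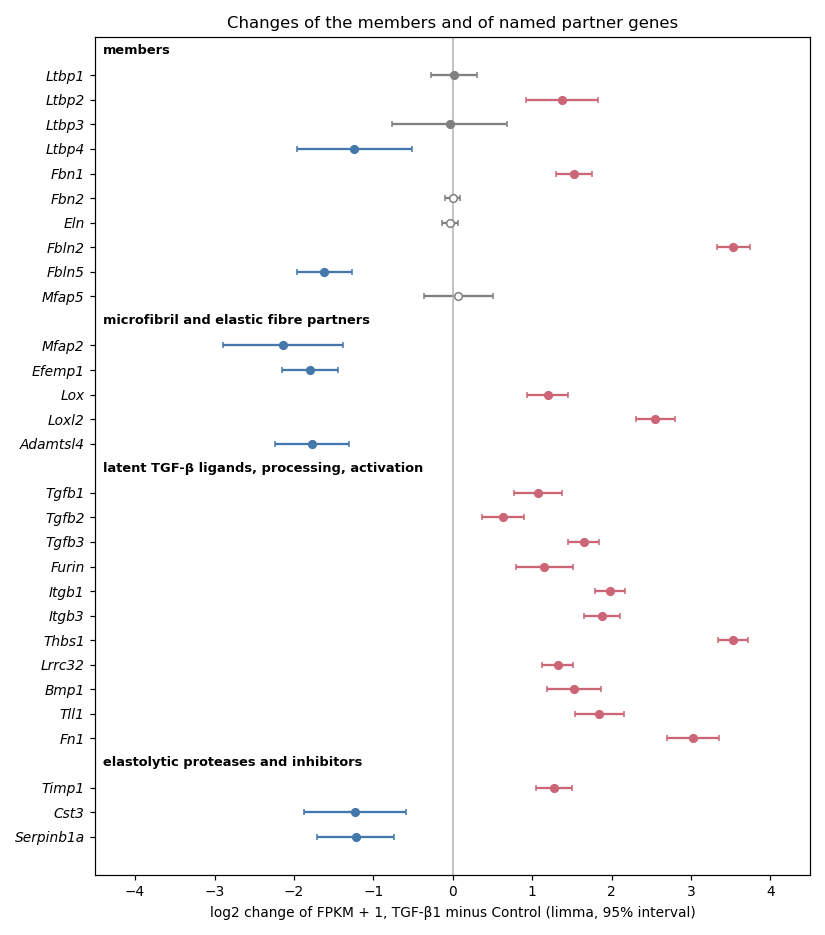
Log2 change of FPKM + 1, TGF-β1 minus Control, with its 95% interval (horizontal axis) for the members and for named genes of the partner lists; red is higher, blue lower and grey not called (limma adjusted p under 0.05), and open circles are genes under the filter. The members, all shown, lie on both sides of 0, from -1.62 (Fbln5) to 3.53 (Fbln2). From the partner lists only the TGF-β ligand genes and tested genes called with a log2 change of at least 1 in size are shown. Those of the latent TGF-β list lie above 0, and Itgb6, which was called lower without the filter, is not shown.

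On mm9, the called members lie at chr6:91162449-91222534 (Fbln2), chr12:102984775-103057265 (Fbln5), chr2:125126330-125333729 (Fbn1), chr12:86124162-86217482 (Ltbp2) and chr7:28090155-28122711 (Ltbp4). Fbn1 shares 2442 nt of exon with Gm9913 on the opposite strand, which was at 0.036 FPKM or less in every library. The members tested and not called lie at chr17:75404908-75791852 (Ltbp1) and chr19:5740904-5758532 (Ltbp3). Fbln2, Fbln5, Ltbp4, Eln, Fbn2 and Mfap5 overlap no other annotated gene.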

How the data were processed

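RNA-Seq of 6 libraries (3 Control, 3 TGF-β1) was used, grouped by the treatment label. Reads that passed a quality filter were aligned by the authors to mm9 with TopHat (the submitters' processing notes name TopHat2 2.0.11), FPKM was estimated with Cufflinks, and the deposited values are FPKM with no stated scaling between libraries. Each row names the transcript with the lowest start in 99.6% of genes with several transcripts, so the name does not show which isoform was read. Each value was taken as that of the gene, which the sources used here do not state. Strand use is not given in the sources used here.

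Rows with a mean of at least 1 FPKM were tested with limma 3.58.1 in R 4.3.3 (eBayes with trend) after a log2 transform with a pseudocount of 1. Tests were two-sided, and p-values were adjusted by Benjamini-Hochberg over all 11898 rows. The fit was also run on simulated data with 200 changed genes, fewer than were called here, so nothing is drawn from that run about these calls. Sums and shares were compared by exact permutation of libraries. Depth came from the steps of low FPKM values in genes with 1 annotated transcript, assuming fragments of 200 nt. At least 99.4% of these values were whole fragments within 0.05, against 15.9% or less when jittered. Floors cover counting error only, and the 95% intervals of log2 changes come from limma and cover the spread between libraries. Fragment numbers of genes with several transcripts use the longest one. Exon lengths, positions and GC content came from GENCODE M1 (mm9). Replicate numbers were not treated as pairs, and the closing section gives the check and the alternatives.

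Some items are not reported here. The members and lists were chosen with earlier results of these data known. The rule for named genes took all members, the TGF-β ligand genes, and tested partner list genes called with a log2 change of at least 1 in size. Other partner list genes that the text mentions fall outside this rule and were not followed across the refits. Python 3.11.15 and scipy 1.17.1 were used.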

Additional observations from a re-analysis of the deposited data

How the results depend on the processing

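Over 146 refits of single members, 142 kept the call or the lack of one, and called members kept their direction in every refit. The other 4 refits, all of Ltbp4, lost the call. The log2 changes of Ltbp1, Ltbp3, Fbn2, Eln and Mfap5, which were not called, took either sign across refits, for Ltbp3 from -0.23 to 0.26. All 282 refits of partner genes that met the rule for named genes kept both the call and its direction. The number of members called lower was 1 in replicates 1 and 3 alone and 1 to 2 when 1 library was left out, and the cause was not tested. The number called higher was 3 except with a filter at 3 FPKM, where it was 2 because Ltbp2 was no longer tested. Over all alternatives, 3 to 4 genes of the microfibril and elastic fibre list were called higher and 4 to 5 lower. In the latent TGF-β list 11 to 13 were called higher and 0 lower, and among proteases and inhibitors 1 to 3 higher and 2 to 4 lower. Rescaling to the protein-coding sum moved the median log2 change of all rows from -0.02 to -0.19 and left 1 protease or inhibitor gene called higher. The difference in summed LTBP FPKM ranged from -12.2 to 6.82 when 1 library was left out, turning positive in 2 of these 6 cases. Removing the trend with GC content, an alternative chosen after seeing the data, left 3 members higher and 2 lower. Replicate numbers are shared between the groups, but deviations of same-numbered libraries correlated at 0.0921, 0.232 and 0.0853 across genes, and not every pair passed 0.1. With the replicate block 3 members were called higher and 2 lower, and over all rows 5391 were called in place of 5721. The block changed no call of a member or of a partner gene that met the rule for named genes. Depth limits Eln and Fbn2, at 6 fragments or fewer in each library.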

Other observations

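The fibulin genes were set side by side after their values were seen. Of 6 fibulin genes, 1 was called higher (Fbln2), 4 were called lower (Fbln5, Efemp1, Fbln1 and Fbln7), and Efemp2, which encodes fibulin-4, was not called, at 140 ± 14.9 and 140 ± 8.89 FPKM (SD, n = 3, limma, adjusted p = 0.995). Fbln1 and Fbln7 were under 1 FPKM on average and were taken from the fit without a filter, so the count joins both fits. Over all rows 48.1% were called with the filter (23.6% as lower) and 30.5% were called without it, and nothing is read from the count about the family. Fbln1 lay between 0.662 and 0.866 FPKM in Control and between 0.244 and 0.514 FPKM in treated libraries (limma, adjusted p = 0.0350). Fbln7 was at 0.411 to 0.602 FPKM in Control and at 0.037 FPKM or less with TGF-β1, where TGF-β1 replicate 3 was listed at 0 (limma, adjusted p = 0.00204). Also under the filter, Emilin2, which encodes a glycoprotein found at elastic fibres, lay between 0.443 and 0.806 FPKM in Control and between 0.099 and 0.156 FPKM in treated libraries (limma, adjusted p = 0.00976), and Mfap4 was at 0.059 to 0.122 FPKM and 0.325 to 0.375 FPKM (limma, adjusted p = 0.00654).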
